A study of Rattus norvegicus with 19 samples.

Results

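Of 27538 transcriptionally active putative enhancers (TAPEs) in the deposited table of TAPE and gene pairs from cultured rat neurons, 691 were higher in striatal cultures than in cortical and hippocampal cultures. TAPEs are intergenic stretches of open chromatin from which RNA is read on both strands. The 691 striatum-higher TAPEs were chosen by level alone. Each had a mean of at least 0.02 CPKM (reads per kilobase of TAPE and per M reads of the library) over all 19 libraries, and a striatal mean of at least 2 times both the cortical and the hippocampal mean. They were 13.8% of the 5017 TAPEs at or above that floor and 2.51% of all TAPEs in that table, which are called all TAPEs here. By the mirrored rule, 368 TAPEs were hippocampus-higher and 265 were cortex-higher.

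Total RNA was sequenced from primary neuronal cultures of Sprague-Dawley rats, prepared at embryonic day 18 from cortex, hippocampus or striatum and kept for 11 days in vitro. Cultures received vehicle or potassium chloride (KCl), which depolarises neurons, for 1 h. The sample labels give 25 mM KCl and the series text gives 10 mM. There were 3 libraries in each group of cortical vehicle, cortical KCl, hippocampal vehicle and hippocampal KCl cultures, 4 of striatal vehicle and 3 of striatal KCl. The study's methods call the libraries of a group biological replicates, and the labels do not say which cultures or litters they came from. One cortical vehicle library (replicate 3) carries a striatal tissue label beside its cortical title and was grouped by its title. Library totals recovered from the CPKM values were 46.4 to 72.5 M reads, of which 0.0932 to 0.124% fell in TAPEs. The study's methods give fewer reads per sample, and the reason for the difference was not tested. In bulk RNA, more cells of a type and more RNA per cell cannot be told apart.

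Enhancers are stretches of DNA that bind transcription factors and raise the transcription of genes, often from a distance. Many active enhancers are themselves transcribed into short-lived enhancer RNA (eRNA), and its level is used as a sign of enhancer activity. The striatum is built mostly of GABAergic medium spiny neurons, born in the lateral ganglionic eminence under factors such as Gsx2, Sp8, Sp9 and the Dlx family. Its dopamine-responsive signalling uses proteins such as Ppp1r1b (DARPP-32). Cultures of cortex and hippocampus are rich in excitatory neurons of pallial origin, which carry factors such as Neurod2.

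The level differences that follow are those the rule used and are given as a description. The striatal means of the 691 TAPEs ran from 0.0309 to 1.18 CPKM with a median of 0.0689. The cortical means had a median of 0.0178 and the hippocampal means a median of 0.0146. Over the 12 cortical and hippocampal libraries together, 6 of the 691 had no read at all. The striatal mean was at least 4 times both other means at 238 of them and at least 10 times at 79. In 142 (20.5%), every one of the 7 striatal libraries lay above every other library, a pattern held by 2.99% of the 5017 TAPEs tested, in the same contrast as the rule. The cortical mean lay above the hippocampal mean at 60.3% of the 691, against 58% of the tested TAPEs. Reads behind these values were few, with a median of 73 per TAPE over all 19 libraries, and 75% of the values of 1 to 10 reads were even numbers.

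Near the limit of the rule the choice was narrow. The 3 TAPEs just inside had striatal means of 0.0476, 0.0641 and 0.042 CPKM beside a higher other mean of 0.0238, 0.032 and 0.021. Their nearest genes were Dad1, Camk2n1 and Khdc1. The 3 just outside, near Rbm25l1, Armc12 and Eif4e3, had striatal means of 0.0554, 0.189 and 0.805 CPKM beside 0.0277, 0.0944 and 0.403.

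The summed level of the 691 TAPEs separated the striatal libraries from all others, as the rule requires. It was 70.4 to 75.6 CPKM in the 4 striatal vehicle libraries and 70.6 to 75.1 in the 3 striatal KCl libraries. Cortical vehicle libraries had 18.4 to 22.4 and cortical KCl libraries 17.9 to 19.3. Hippocampal libraries had 14.6 to 19.2. The cortical library with the striatal tissue label had 22.35 CPKM, the highest of the non-striatal libraries, and its other TAPEs summed to 568 CPKM, also the highest. As a share of reads in TAPEs it had 3.53%, within the 3.29 to 3.73% of the other cortical libraries. Without it the rule named 740 TAPEs, of which 657 were among the 691.

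The TAPE with the highest striatal mean lay at chr8:62274612-62275990 (Rn6, as are all TAPE positions), 8035 bp from the start site of Rpp25, which encodes a subunit of ribonuclease P. It had 1.44, 1.37, 1.34 and 1.58 CPKM in the striatal vehicle libraries and 0.863, 0.989 and 0.681 in the KCl libraries. Cortical libraries had 0.0781 to 0.163 (median 0.123) and hippocampal libraries 0.0639 to 0.21 (median 0.114), so the striatal and other libraries did not overlap. The next, at chr16:82477815-82479820, lay 190795 bp from the nearest start site, that of Spaca7. Its striatal vehicle libraries had 0.939, 1.11, 0.989 and 1.2 CPKM and its KCl libraries 0.932, 0.965 and 0.86, against at most 0.199 in cortex and 0.163 in hippocampus.

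The other 8 of the 10 highest had striatal means of 0.535 to 0.877 CPKM and were nearest to LOC691716, Esrrg, Azi2, Mir6329, Dpp6, Tex47, MGC116121 and Stx6. The distances differed widely, from 2865 bp for MGC116121 to 470748 bp for Dpp6, an auxiliary subunit of A-type potassium channels. The Dpp6 TAPE at chr4:4943207-4944903 had the largest ratio of the 10, with a striatal mean of 0.661 ± 0.0589 CPKM (SD, n = 7) beside 0.0126 ± 0.0186 in cortex (n = 6) and 0.00509 ± 0.00558 in hippocampus (n = 6). At the other end, the LOC691716 TAPE had a ratio of 2.02, with 0.877 ± 0.136 CPKM in striatum beside 0.434 ± 0.0801 in hippocampus. The nearest gene itself was higher in striatum at 4 of these 10 TAPEs (Rpp25, Azi2, Dpp6 and MGC116121) and lower at 1 (Stx6), by the test of gene RNA described below, and the profile of Esrrg could not be solved.

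**Figure D1:**
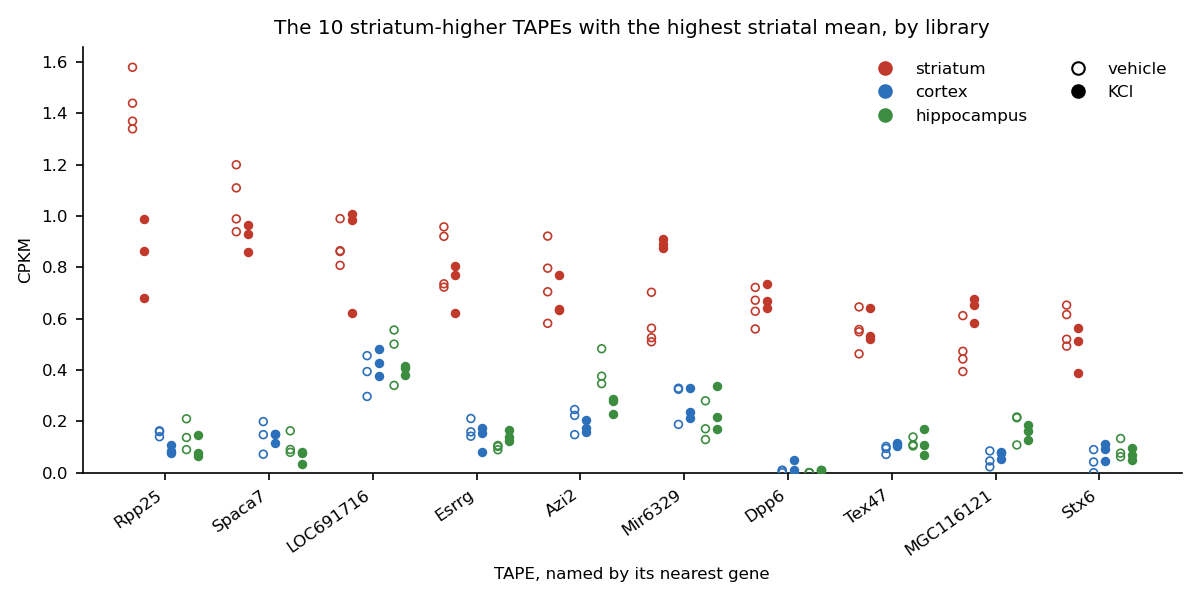
CPKM of the 10 striatum-higher TAPEs with the highest striatal mean in each of the 19 libraries (open circles vehicle, filled circles KCl, colours for the culture), each named by its nearest gene. Striatal libraries lie above all others at each of them, and the Rpp25 TAPE has vehicle libraries at 1.34 to 1.58 and KCl libraries at 0.681 to 0.989.

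The striatum-higher TAPEs lay in groups along the chromosomes. Of the 691, 276 (39.9%) had another of them within 100 kb between centres. Of all tested TAPEs, a far larger set, 63.3% had another tested TAPE within 100 kb. Chained at that distance they formed 510 groups, with 415 single TAPEs, 65 pairs and 30 groups of at least 3. Among all TAPEs tested, the nearest tested TAPE was itself striatum-higher for 37.5% of the 691 and for 9.69% of the other 4326, while striatum-higher TAPEs made up 13.8% of those tested. The hippocampus-higher TAPEs (31% with another within 100 kb, largest group 5) and the cortex-higher TAPEs (37.7%, largest group 12) were grouped as well, from smaller sets. For the hippocampus-higher TAPEs the nearest tested TAPE was of the same set in 34.5%, where that set made up 7.34% of those tested. For the cortex-higher TAPEs the shares were 31.3% and 5.28%. TAPEs of one group may share a transcript and are not independent of each other.

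The largest group held 18 striatum-higher TAPEs over 391 kb of chromosome 16 (chr16:82477815-82868764), in which only 1 other TAPE was tested. No start site of a gene in the deposited pairs lay within 100 kb of any of the 18, and the nearest was that of Tex29 at 133122 bp. The RNA of Tex29 and of Spaca7, on the far sides of the stretch, was not called different in striatum (differences of 0.52 and 0.06 SD). Summed over the group, the striatal vehicle libraries had 3.09, 3.65, 2.94 and 3.54 CPKM and the KCl libraries 2.62, 3.42 and 3.07. Cortical libraries had 0.17 to 0.349 and hippocampal libraries 0.0944 to 0.362. All 18 had a striatal mean of at least 4 times the next, and at 4 of them no read was found in any cortical library.

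A second group of 15 lay over 239.3 kb of chromosome 3 (chr3:98472217-98711475), with no other tested TAPE between them. Its nearest start site was that of Kcna4, a voltage-gated potassium channel of the A type, at 175361 bp. These TAPEs were weaker than those of chromosome 16, with striatal means of 0.033 to 0.0904 CPKM. The summed level was 0.995, 0.864, 0.658 and 1.11 CPKM in striatal vehicle libraries and 0.898, 0.68 and 0.929 in KCl libraries, above the cortical range of 0.153 to 0.472 and the hippocampal range of 0.0375 to 0.139. Kcna4 RNA was higher in striatum (1.87 SD, adjusted p = 0.000101, exact permutation test), with striatal libraries at 0.88 to 1.56 SD and the others at -1.18 to 0.14.

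The third group held 7 TAPEs over 82.4 kb of chromosome 10 (chr10:74153921-74236297), near Dhx40, an RNA helicase gene, and Ypel2. All 7 had a start site within 100 kb, the nearest 36079 bp away. Summed CPKM was 0.756, 0.804, 0.798 and 1.04 in striatal vehicle and 1.04, 1.06 and 1.06 in striatal KCl libraries, against 0.0789 to 0.198 in cortex and 0.075 to 0.263 in hippocampus. Both Dhx40 and Ypel2 were called higher in striatum.

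**Figure D2:**
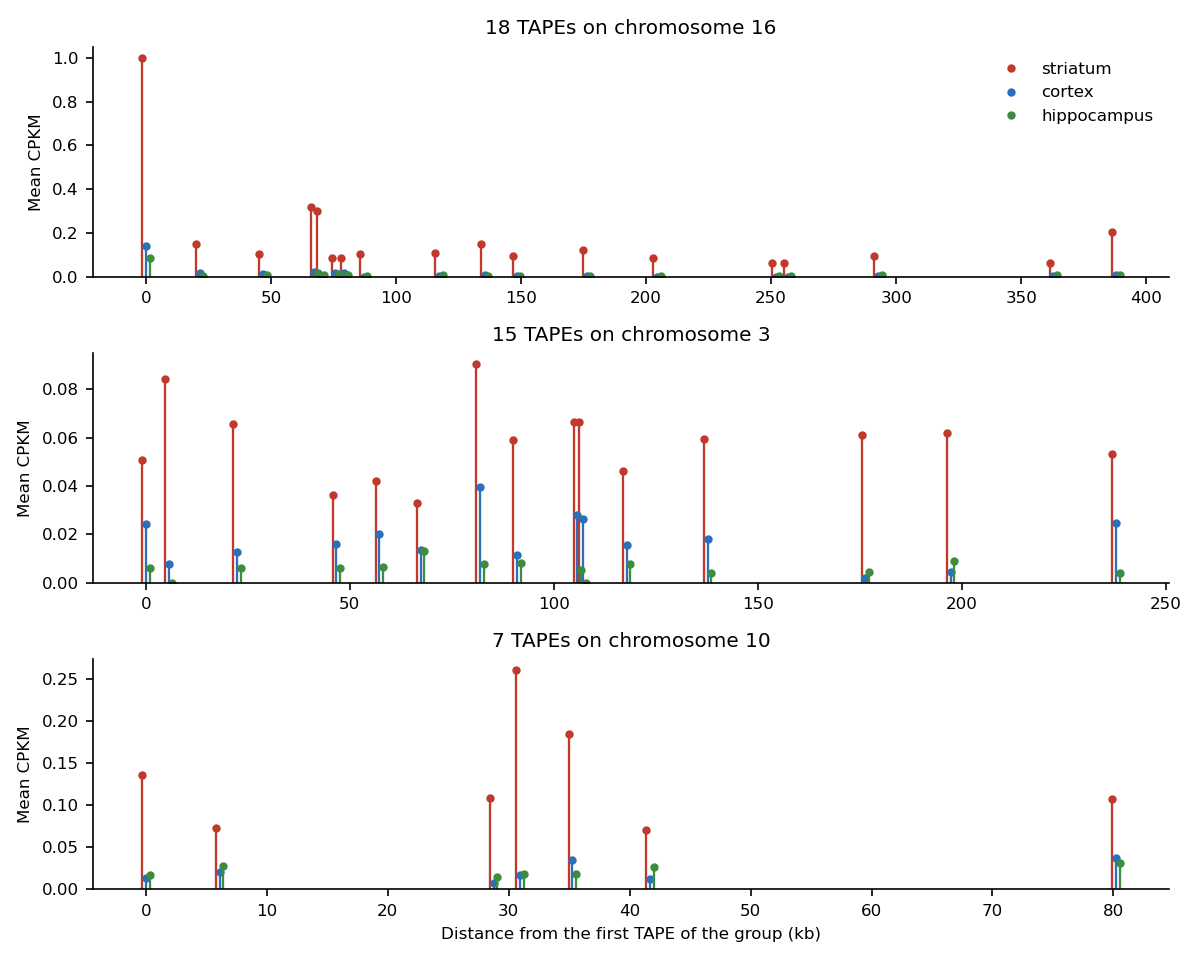
Mean CPKM in striatal (7), cortical (6) and hippocampal (6) libraries of each TAPE in the 3 largest groups, against the distance in kb from the first TAPE of the group. The group on chromosome 16 is led by 1 TAPE at 1 CPKM followed by 17 at 0.0616 to 0.319, while the 15 on chromosome 3 are of like height.

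By chromosome, striatum-higher TAPEs were most numerous on chromosomes 1 (74), 2 (63) and 3 (61). As a share of the tested TAPEs they ranged from 7.48% on chromosome 12 to 20.3% on chromosome 16, apart from chromosome Y with 1 of 4. On chromosome 16, 18 of the 37 belonged to the single large group.

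Start sites were those of the 17715 genes in the deposited pairs, and other annotated genes were not analysed here. One lay within 100 kb of 407 of the 691 striatum-higher TAPEs (58.9%), against 65.2% of tested TAPEs and 52.8% of all TAPEs. The shares were 60.1% for hippocampus-higher and 51.3% for cortex-higher TAPEs. The median distance to the nearest start site was 71334 bp, compared with 53016 bp for all tested TAPEs. Within 10 kb there was a start site for 87 of the 691 (12.6%, against 14% of tested TAPEs), and 31 had none within 500 kb. Median length was 1871 bp for the 691 and 1891 bp for those tested.

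Genes near these TAPEs were more often higher in striatum than genes in general. The RNA of genes had not been used to choose the TAPEs, although it was read from the same libraries. Each gene's profile over the 19 libraries was solved, in units of that gene's SD, from the correlations deposited for its TAPE pairs, and the 7 striatal libraries were compared with the 12 others by a two-sided exact permutation test adjusted over all 16733 genes solved. Of all these genes, 27.1% were higher and 25.8% lower in striatum. Of the 934 solved genes with a start site within 100 kb of a striatum-higher TAPE, 391 (41.9%) were higher and 150 (16.1%) lower. Their median difference was 0.73 SD, against -0.09 SD over all genes. In 212 of the 934 (22.7%) every striatal library lay above every other library, against 13% of all genes. Neighbouring genes and TAPEs share loci, so these counts are descriptions of 934 genes that are not independent.

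The share of higher genes was smaller at longer distances. Within 20 kb, 91 of 187 genes (48.7%) were higher and 22 (11.8%) lower in striatum. Between 50 and 100 kb 38.7% were higher, between 100 and 200 kb 32.5%, and between 500 kb and 1 Mb 29.1%. Genes within 20 kb of any tested TAPE were higher in 29% of cases. Around hippocampus-higher TAPEs the calls ran the other way, with 11.1% higher and 47.2% lower within 20 kb. Around cortex-higher TAPEs they were 7.84% and 54.9%. The 3 sets of TAPEs exclude each other by construction.

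**Figure D3:**
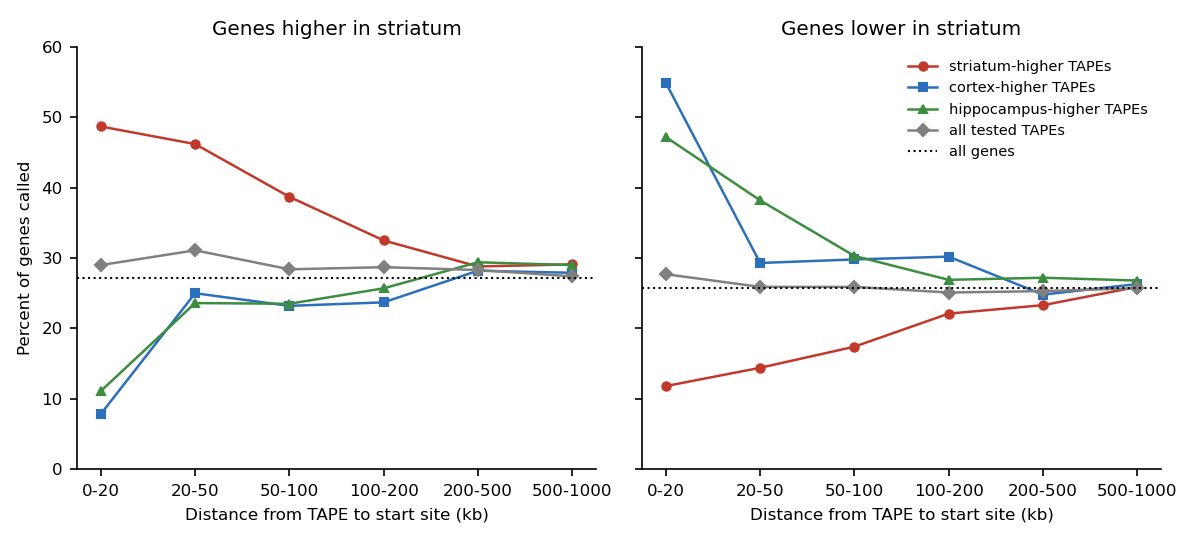
Percent of genes called higher (left) or lower (right) in striatum, by distance in kb from the TAPE to the gene's start site, for genes around 4 sets of TAPEs, with the dotted line for all genes. Around striatum-higher TAPEs the share of higher genes goes from 48.7% within 20 kb to 29.1% beyond 500 kb, close to the 27.1% of all genes.

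Genes with 2 or more striatum-higher TAPEs within 100 kb were higher in 66 of 124 cases (53.2%), and those with 1 in 325 of 810 (40.1%). With 3 or more it was 11 of 26 (42.3%). Of the 407 TAPEs with a start site in reach, 279 (68.6%) had at least 1 such gene called higher, against 52.4% of tested TAPEs. Calls in the opposite direction occurred at 125 of the 407 (30.7%), against 50.2%. The gene with the most striatum-higher TAPEs within 100 kb was Dhx40 with 6 (1.94 SD). Stx6, which encodes a syntaxin of endosomal transport, had 5 yet was lower in striatum (-1.37 SD, adjusted p = 0.00496, exact permutation test). Among the genes with 4, Cops3, Med9 and Mir124-1 were higher, March10 and Mr1 were lower, and Irf2bpl, LOC108351370 and Mir3099 were not called. Mir124-1 is one of the loci of the neuronal microRNA miR-124. Its locus RNA differed by 1.78 SD, and the mature microRNA was not measured.

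Of the striatal lineage transcription factors, 16 of 20 with a solved profile were higher in striatum and none was lower. In the medium spiny neuron signalling list 15 of 23 were higher and 6 lower, and in the GABAergic and interneuron list 11 of 17 were higher and 5 lower. Of the pallial excitatory genes 15 of 19 were lower and 1 higher. Glial and vascular markers moved with the same contrast. No gene of these 4 lists was called higher in striatum, and 6 of 7 astrocyte, 5 of 8 oligodendrocyte-lineage, 0 of 5 microglial and 3 of 5 vascular genes were lower. Their median differences were -1.9, -1.56, -0.36 and -1.08 SD. The part of such differences in cell make-up in the TAPE levels was not tested.

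Of all 17715 genes, 941 (5.31%) had a striatum-higher TAPE within 100 kb, and 5810 had any tested TAPE there. Among striatal lineage factors 9 of 25 had any tested TAPE in reach. A striatum-higher TAPE lay within 100 kb of 5 of the 25 (Gsx2, Sp8, Sp9, Zfp503 and Mn1), 1 for each. Gsx2, Sp8 and Sp9 had it at 8416, 7673 and 8347 bp. Each of these 3 genes differed by 1.85 to 1.98 SD (adjusted p = 0.000101, the smallest reached, exact permutation test), and in each every striatal library lay above every other. Mn1 had its TAPE at 48905 bp and differed by 1.42 SD, with overlap between striatum and cortex. Mn1 RNA stood at 0.24 to 0.47 SD in striatal vehicle and 1.5 to 1.8 SD in striatal KCl libraries. Cortical libraries had -0.39 to 0.71 SD and hippocampal libraries -1.2 to -1.1 SD. The profile of Zfp503, a zinc finger factor of the striatal lineage, could not be solved. The Sp9 TAPE (chr3:59972614-59974611) had 0.15, 0.182, 0.138 and 0.0951 CPKM in striatal vehicle and 0.113, 0.129 and 0.106 in striatal KCl libraries. Its highest cortical value was 0.0276 and its highest hippocampal value 0.0431, so the groups did not overlap. The Zfp503 TAPE (chr15:2366360-2368251, 7276 bp away) had no read in any hippocampal library and a striatal mean of 0.0963 ± 0.0446 CPKM (SD, n = 7), though striatal vehicle replicate 4 had only 0.0106. Of the other striatal factors, Dlx1, Dlx2, Ebf1, Six3 and Rarb were higher in striatum by 1.97 to 2.01 SD with no striatum-higher TAPE within 100 kb. Only intergenic TAPEs were quantified, so elements inside genes were not analysed here.

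In the medium spiny neuron list, 8 of 24 genes had any tested TAPE within 100 kb. Striatum-higher TAPEs lay within 100 kb of 3 of the 24 (Ppp1r1b, Gng7 and Ngef). Ppp1r1b, the DARPP-32 gene that links dopamine receptors to protein phosphatase 1, had 2 of them at 3084 and 5854 bp (chr10:86299901-86301386 and chr10:86296945-86298801). The nearer had 0.415, 0.244, 0.337 and 0.291 CPKM in striatal vehicle and 0.229, 0.223 and 0.284 in striatal KCl libraries, beside means of 0.0459 in cortex and 0.0373 in hippocampus. Ppp1r1b RNA stood at 1.16 to 1.36 SD in the striatal libraries and at -0.76 to -0.72 in all others. The same 2 TAPEs lay 17950 and 15180 bp from the start site of Neurod2, which went the opposite way, at -1.24 to -1.23 SD in striatal and 0.32 to 1.31 in other libraries. The pair thus sat between the start sites of a gene higher and a gene lower in striatum. Gng7, a G protein gamma subunit of striatal neurons, and Ngef, a neuronal guanine nucleotide exchange factor, differed by 1.99 and 2 SD, with their nearest striatum-higher TAPEs at 55480 and 64760 bp. The dopamine receptor genes Drd1 and Drd2 and the adenosine receptor gene Adora2a were higher in striatum (1.82, 2.01 and 2.01 SD) without one within 100 kb. The 6 genes of this list called lower in striatum, at -1.82 to -1.11 SD, had none within 100 kb either.

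Among GABAergic genes, Gad2, a GABA-synthesising enzyme, had a striatum-higher TAPE at 82544 bp and was higher in striatum (2.01 SD). Sox6 had one at 47462 bp and was lower (-1.33 SD, adjusted p = 0.00667, exact permutation test). Glial genes were not free of such neighbours. Of 8 oligodendrocyte-lineage genes, 7 had any tested TAPE within 100 kb and 3, among them Pdgfra and Mog, had a striatum-higher one. Of 6 microglial genes the counts were 2 and 1 (Cx3cr1), and of 20 GABAergic and interneuron genes 8 and 3. Pdgfra was called lower in striatum, and Mog and Cx3cr1 were not called. The Pdgfra neighbour was the same TAPE that lay 8416 bp from Gsx2.

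**Figure D4:**
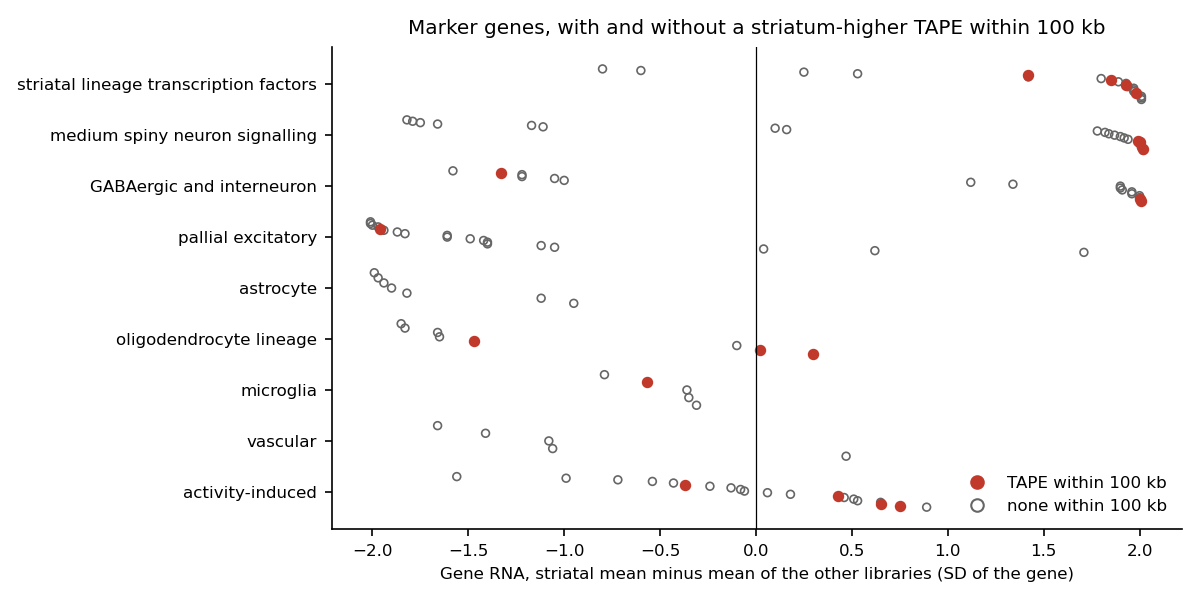
Difference in gene RNA between striatal and other libraries, in SD of the gene, for each gene of 9 marker lists. Filled points have a striatum-higher TAPE within 100 kb. In the 3 striatal and GABAergic lists they lie from 1.42 to 2.02 SD except Sox6 at -1.33, and in the pallial list the only filled point is Neurod2 at -1.96.

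Of these genes, 6 were higher in striatum with a striatum-higher TAPE in reach and had a promoter entry in RefSeq (Gsx2, Sp8, Sp9, Gng7, Ngef and Gad2). Promoter sequences are shown for 3, the 2 that held a searched motif (Gsx2 and Gng7) and, for contrast, Sp9, and the other 3 held none. Each is the 250 bases before the start site in build GRCr8, a later build than that of the TAPEs, for Gsx2 chr14:33480321-33480570, minus strand, for Sp9 chr3:78554095-78554344, plus strand and for Gng7 chr7:9365139-9365388, plus strand. Capitals mark CTA and TAG with any 4 bases between them, a pattern looser than the MEF2 motif, which has A or T there, and TAATTA, the core letters of many homeodomain factors, on either strand.
Gsx2: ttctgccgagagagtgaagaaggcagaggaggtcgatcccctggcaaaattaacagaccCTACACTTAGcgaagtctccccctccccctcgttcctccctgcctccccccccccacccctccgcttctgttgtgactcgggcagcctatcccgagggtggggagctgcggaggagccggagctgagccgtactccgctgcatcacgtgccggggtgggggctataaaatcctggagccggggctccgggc
Sp9: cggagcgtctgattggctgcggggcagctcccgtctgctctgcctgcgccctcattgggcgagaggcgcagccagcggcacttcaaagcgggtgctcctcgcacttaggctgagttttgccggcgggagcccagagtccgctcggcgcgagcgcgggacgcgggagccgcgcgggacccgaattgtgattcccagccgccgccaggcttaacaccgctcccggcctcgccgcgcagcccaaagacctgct
Gng7: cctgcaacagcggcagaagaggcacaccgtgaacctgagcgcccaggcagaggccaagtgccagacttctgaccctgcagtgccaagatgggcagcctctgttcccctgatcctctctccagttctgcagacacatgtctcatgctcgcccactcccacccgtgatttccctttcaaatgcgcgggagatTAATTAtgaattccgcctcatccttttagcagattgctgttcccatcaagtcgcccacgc
Gsx2 held 1 match to the CTA and TAG pattern, which is not thereby a MEF2 site, Gng7 held 1 TAATTA and Sp9 held neither, nor did any of the 3 hold TGANTCA, the letters of AP-1. The 3 motifs do not overlap in these windows. Of the 391 genes near striatum-higher TAPEs and higher in striatum, 308 had a RefSeq promoter. The CTA and TAG pattern was in 2.92% of them against 3.43% of all 27457 promoters, TAATTA in 1.3% against 4.94%, and TGANTCA in 3.9% against 6.36%. A match is a description of letters and not of binding.

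The number of striatum-higher TAPEs called for KCl depended on the fit. In striatal cultures, 2 of the 691 passed as higher and none as lower (limma on log2(CPKM + 0.05), adjusted p under 0.05 over 5017 TAPEs), where 0.0598% of all tested TAPEs rose and 0% fell. There were 12 with each library centred on its median, of 19 called among all 5017, and 11 by voom on recovered reads, of 18. One fit of all 6 groups called 36, of 60 among all tested, and leaving out any 1 library left 0, of 0. In simulated data 8 of 100 TAPEs changed 2-fold, all with a striatal mean of at least 0.05 CPKM, were called. The simulated spread between libraries was set and not estimated from these data, so the rate may differ in real data. At an unadjusted p under 0.05, 76 (11%) were higher and 52 (7.53%) lower with KCl, against 3.65% and 7.91% of all tested. The rule averaged vehicle and KCl libraries, so a TAPE high only in striatal KCl libraries could enter through them, and the KCl values of such a TAPE are a description. Of the 503 that also met the rule in vehicle libraries alone, 36 (7.16%) were higher and 51 (10.1%) lower at that p. Of the other 188, 40 (21.3%) were higher and 1 lower. This split uses the vehicle values of the same contrast, so it leans towards falls in the 503 and rises in the 188. It is a description too. Of 666 tested TAPEs chosen on vehicle libraries alone, 5.86% were higher and 12% lower at that p. The median difference was -0.07 on the log2 scale for the 691 and -0.11 for all tested TAPEs.

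One of the 2 lay at chr6:109261263-109264039, 37782 bp from Fos, an immediate early gene that neurons transcribe on depolarisation. It had 0.222, 0.152, 0.168 and 0.168 CPKM with vehicle and 0.564, 0.684 and 0.635 with KCl in striatum, with no overlap. The log2 difference was 1.58 ± 0.15 (SE), adjusted p = 0.04 by limma, and it also met the rule in vehicle libraries alone. The log2 differences in cortex and hippocampus were 1.25 and 0.92, neither passing the adjusted test, and the striatal effect was not called different from theirs (difference 0.50 ± 0.33 SE, adjusted p = 0.795 by limma). A second striatum-higher TAPE, 18471 bp from Fos, did not meet the rule in vehicle libraries alone. It had 0.117, 0.0984, 0.146 and 0.0767 CPKM with vehicle and 0.26, 0.254 and 0.323 with KCl (log2 difference 1.06, not called). Fos RNA itself stood at -0.79 to -0.62 SD in striatal vehicle and 1.55 to 1.62 SD in striatal KCl libraries.

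The other, at chr9:45650231-45651808, lay 21138 bp from Pdcl3, a phosducin-like chaperone gene. It had 0.132, 0.129 and 0.146 CPKM in the 3 striatal KCl libraries (34 reads in all) and no read in any other of the 19 libraries. Against a floor of 3 reads over the 4 striatal vehicle libraries, and with the counting error of the 34 reads, it was at least 12.2-fold higher with KCl. This TAPE met the rule only through its KCl libraries, so that its KCl difference is part of its selection and its call is not a result. Pdcl3 RNA ranged from 0.2 to 0.44 SD in striatal vehicle and from 1.82 to 2.19 SD in striatal KCl libraries, and it was higher in striatum than elsewhere (1.68 SD).

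No striatum-higher TAPE passed the adjusted limma test for KCl in cortex or hippocampus. Of all tested TAPEs 0.0199% rose in cortex, 0% fell there and 0% were called in hippocampus. The rule kept the 691 low in both cultures, with median means of 0.0178 and 0.0146 CPKM beside the added 0.05. A change there was therefore hard to call and its log2 difference shrunken, so the lack of calls is a description. At an unadjusted p under 0.05, 23 of the 691 were higher and 33 lower with KCl in cortex, against 3.27% and 5.1% of all tested TAPEs. In hippocampus 23 were higher and 27 lower, against 3.17% and 6.24%. Voom on recovered reads also called none in either, of 13 called among all 5017 in cortex and 0 in hippocampus. One fit of all 6 groups called 1 in each, of 12 in cortex and 26 in hippocampus. The KCl effect in striatum exceeded the mean of the other 2 effects at 2 of the 691 (0.0399% of all tested TAPEs higher, 0.0199% lower, limma), and at an unadjusted p under 0.05 at 61, with 47 in the other direction, against 3.55% and 4.15% of all tested. The 2 were the Pdcl3 TAPE and a TAPE at chr1:208079569-208081062, 59861 bp from the proliferation gene Mki67. Neither met the rule in vehicle libraries alone, so both entered on the values compared here and are a description. The Mki67 TAPE had 0, 0.027, 0 and 0 CPKM with vehicle and 0.0506, 0.136 and 0.154 with KCl in striatum. Its 27 reads with KCl and 2 with vehicle gave a ratio of 18.8 (95% interval 4.73 to 163). This interval and the bound for Pdcl3 cover counting error only and take reads as independent. Low read values were mostly even numbers, so reads may come in pairs, and both may then be too narrow. Mki67 RNA was lower in striatum (-1.86 SD).

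Of 20 activity-induced genes, 13 had a tested TAPE of any kind within 100 kb, against 5810 of all 17715 genes. Striatum-higher TAPEs lay within 100 kb of 4 of the 20, against 5.31% of all genes. Besides the 2 TAPEs of Fos, Sik1, a salt-inducible kinase gene, had 2, and Arc and Btg2 had 1 each. The stronger Sik1 TAPE (chr20:10622072-10624253, 57121 bp away) had 0.323, 0.277, 0.269 and 0.317 CPKM with vehicle and 0.848, 0.608 and 0.685 with KCl. Its log2 difference of 1.13 missed the threshold (limma adjusted p = 0.0718) and was 1.17 in cortex and 1.02 in hippocampus. The Btg2 and Arc TAPEs had log2 differences of 0.73 and 0.45 in striatum, neither called, and neither TAPE met the rule in vehicle libraries alone. None of the 4 genes was called different between striatum and the other cultures.

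Within the large groups, KCl differences had both signs. In the group of 18 on chromosome 16, 8 log2 differences were above 0 and 10 below, with a median of -0.04. The group of 15 on chromosome 3 had 8 above and 7 below, with a median of 0.02. The group of 7 near Dhx40 ranged from -0.85 to 1.51, so that neighbours differed in sign within 82.4 kb. A group of 4 on chromosome 8 (chr8:56784725-56827718, picked after its values were seen) had summed levels of 0.183, 0.155, 0.304 and 0.296 CPKM with vehicle and 0.474, 0.637 and 0.87 with KCl. Its nearest gene, Zc3h12c, which encodes an RNA-degrading protein and lies 88663 bp from the closest of the 4, stood at 0.1 to 0.31 SD in striatal vehicle and 2.08 to 2.16 SD in striatal KCl libraries. None of the 4 TAPEs passed the adjusted test.

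**Figure D5:**
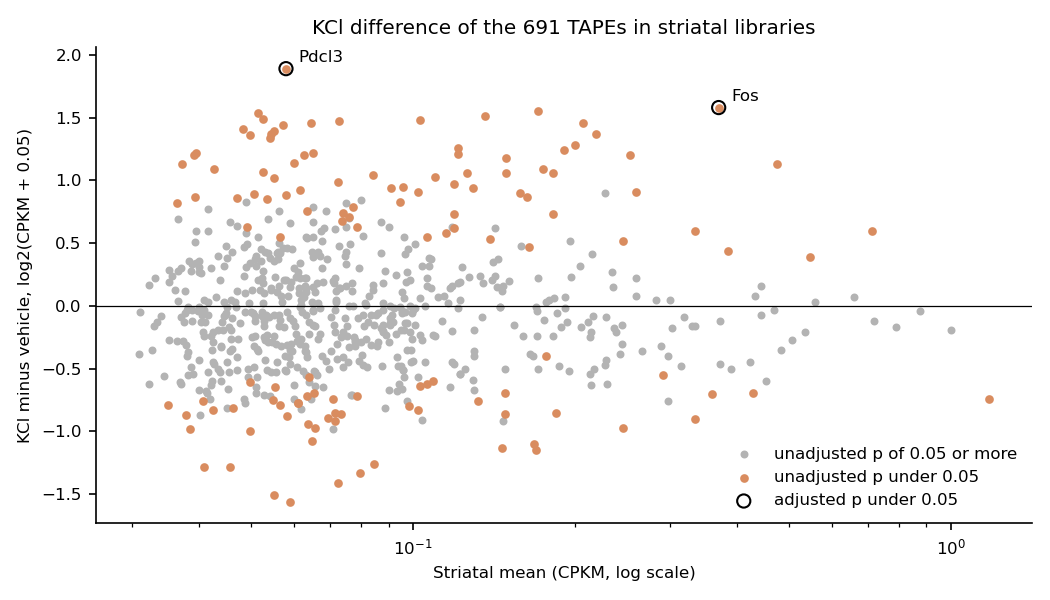
Difference between striatal KCl (3) and vehicle (4) libraries in log2(CPKM + 0.05) for each of the 691 striatum-higher TAPEs, against the striatal mean on a log axis. The ringed points are the 2 that passed the adjusted limma test, at 1.58 (Fos) and 1.89 (Pdcl3), and the other coloured points passed only an unadjusted p of 0.05.

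With a higher floor, more striatum-higher TAPEs passed in striatum. At a mean of at least 0.05 CPKM, 211 of them were among 1870 TAPEs tested, and 10 rose and 1 fell (limma), against 0.802% and 0.428% of the 1870. At that floor none was called by limma in cortex (0.321% of the 1870 rose) or hippocampus (0.0535% rose). None was called in the comparison of the effects either (0.0535% lower, limma). The rule kept these TAPEs lower in cortex and hippocampus, which limits the lack of calls there as said above. The 10 included TAPEs near Fos, Myo3a (2), Cflar, Igf1, Dtwd2, Dhx40, Chac1, Cdkn2aipnl and Sik1, and all but the Chac1 TAPE met the rule in vehicle libraries alone. The 1 that fell was the Rpp25 TAPE described above, with a log2 difference of -0.74 ± 0.15 (SE). Its limma adjusted p was 0.0305, and at the floor of 0.02 it was 0.156, or 0.164 with libraries centred on their median. Its log2 differences in cortex and hippocampus were -0.55 and -0.43, neither called. At the floor of 0.02 its striatal effect was not called different from theirs (limma adjusted p = 0.884). The Igf1 TAPE, 41633 bp from the insulin-like growth factor gene, had 0.106, 0.0506, 0.0953 and 0.0347 CPKM with vehicle and 0.408, 0.269 and 0.231 with KCl. The Cflar TAPE, 19357 bp from that caspase-8 inhibitor gene, had 0.0769, 0.106, 0.136 and 0.0906 with vehicle and 0.371, 0.29 and 0.268 with KCl. Values with KCl exceeded all vehicle values at both. Leaving out any 1 striatal library at the floor of 0.02 left no call, with the Fos TAPE at limma adjusted p values of 0.0529 to 0.117.

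As a share of all reads in TAPEs, the 691 took 12.5 to 13.2% in striatal vehicle and 14.5 to 14.7% in striatal KCl libraries, with no overlap. The share followed the choice of libraries in the rule. With TAPEs chosen on vehicle libraries alone it was 13.8 to 14.4% with vehicle and 13.7 to 13.8% with KCl, and chosen on KCl libraries alone 11.3 to 11.6% and 16.1 to 16.2%. The summed CPKM of all other TAPEs was 467 to 488 in striatal vehicle and 403 to 416 in striatal KCl libraries.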

How the data were processed

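Total RNA libraries were trimmed with Trim Galore 0.4.5 and processed with SAMtools 1.9 and FastQC on rn6, per the labels, and the study's methods name STAR and SeqMonk. The authors called ATAC-seq peaks, kept intergenic regions with RNA on both strands, and deposited RNA as reads per kilobase and per M reads (CPKM, an RPKM unit) per TAPE and library, including 500 bp on each side of the peak. They also deposited 4 correlation scores for each pair of a TAPE and a gene within 1 Mb, 388605 pairs in all. Per-library gene values were not used here.

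Every CPKM value times length and library total gave a whole number (100%, tolerance 0.01), so totals and reads could be recovered. KCl was tested with limma 3.58.1 (R 4.3.3, trend) on log2(CPKM + 0.05) within each culture, two-sided, Benjamini-Hochberg adjusted over the 5017 TAPEs with a mean of at least 0.02, and the fold understates change at low values. The striatal KCl effect was compared with the mean of the other 2 in one fit of all 19 libraries. In simulated data, 8 of 100 TAPEs changed 2-fold and 80 of 100 changed 4-fold were called in striatum, with 6 of 4817 unchanged. The simulated reads were drawn singly with a set spread, while real reads may come in pairs. These rates may therefore not hold for the real data. Gene profiles, in SD units, were solved from the deposited correlation scores for 16733 of 17715 genes and tested over all 50388 arrangements of 7 among 19 libraries with Python 3.11.15 and numpy 2.4.6. Named TAPEs were the 10 highest, those called for KCl in striatum, the 3 largest groups and those next to the limit. Named genes were their nearest genes, the 10 with the most members and marker-list genes within 100 kb. TAPEs named for the 0.05 floor or the comparison of effects fall outside this rule and were chosen after their values were seen. Members and lists were chosen with earlier results of these data known. No genome of the TAPEs' build was used, so TAPE sequences are not shown. Some genes of the lists are not reported here by name.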

Additional observations from a re-analysis of the deposited data

Results flagged for a closer look

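The KCl effect in striatum exceeded that in the other cultures at 2 striatum-higher TAPEs in a direct test of the difference (limma): by 1.89 on the log2 scale near Pdcl3 and by 1.73 near Mki67. Both entered the set through their striatal KCl libraries and did not meet the rule in vehicle libraries alone, so the comparison reuses the values that chose them and supports nothing. By voom on recovered reads neither passed. The Mki67 call was lost without striatal KCl replicate 5 or 7, striatal vehicle replicate 6 or 8, or hippocampal KCl replicate 1 or 2.

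Among 47 sets of 4 striatal vehicle values, 4 held 1 library far from the others by Dixon's criterion. These were replicate 8 for the summed level of the chromosome 10 group (1.04 CPKM, others 0.756 to 0.804), replicate 4 for the Mki67 TAPE (0.027, others 0), replicate 6 for the Sp8 TAPE (0.0855, others 0.038 to 0.0444) and replicate 8 for the TAPE between Xirp1 and Cx3cr1 (0.0319, others 0). The cause was not tested.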

How the results depend on the processing

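The number of striatum-higher TAPEs was 1147 at a ratio of 1.5, 356 at a ratio of 3 and 211 at a floor of 0.05 CPKM, and 642 to 740 when 1 library was left out. Members called for KCl in striatum, 2 at the settings reported, were 12 with each library centred on its median, 11 at a floor of 0.05 CPKM, 1 with no floor, 36 (28 higher, 8 lower) in one fit of all 6 groups and 11 (8 higher, 3 lower) by voom on recovered reads, and 0 without any 1 library. Over all tested TAPEs these settings called, in the same order, 3, 19, 23, 2, 60, 18 and 0. One fit of all 6 groups called 1 in cortex and 1 in hippocampus, of 12 and 26 among all tested. Every other setting gave 0 there (0 to 0 without 1 library). The comparison of the striatal effect with the others called 0 at the floor of 0.05 CPKM (1 among all tested). It called 9 with a pseudocount of 0.1 (10 among all tested), 0 by voom (1) and 1 to 4 without 1 library (2 to 5). The floor of 0.05 drops both TAPEs called there, and for the other changes the cause was not tested. Genes higher in striatum within 100 kb made up 36.1% (vehicle libraries alone) to 47% (within 50 kb) under the 5 alternatives run, against 22.7% to 27.1% of all genes, and 40.6% to 42.5% without 1 library. The shares with a neighbour or a start site stayed within 1.5 times at 50 kb, 200 kb and the higher floor. Vehicle and KCl libraries of the same number in cortex or hippocampus did not deviate together (correlations of deviations -0.02 to 0.01). With so few reads per TAPE this cannot exclude that they were paired. The fit with the replicate block called 0 members in each. Striatal vehicle and KCl titles share no number. The KCl test in striatum recovered 8 of 100 simulated 2-fold changes at a striatal mean of at least 0.05 CPKM, with the spread set as said above.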
